A study of Mus musculus with 39 samples.

Results

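Epididymal secretory genes, which encode proteins that the lining of the epididymis releases into its lumen, were followed across the gubernaculum libraries of this study, with testis as the reference tissue. The 10 genes were chosen by name from the 21561 Ensembl genes shared by both deposited count tables: Crisp1, Spink8, Akr1b7, Clu, Lcn5, Lcn8, Lcn9, Lcn10, Cst8 and Cst11. Some of them were picked for large rises in the mutant gubernaculum, so their gubernaculum values are given as a description with no test, and tests were run only in testis and on other genes. All mice were C57BL/6J males with no drug or surgical treatment. WT mice were compared with INSL3-KI mice, in which minke whale INSL3 cDNA was targeted into the mouse Insl3 locus and placed under that gene's own regulatory sequence, and with INSL3-KO mice. Gubernaculum, the ligament that guides the testis during descent, gave 3 libraries each of WT, INSL3-KI and INSL3-KO at postnatal day 8 (P8) and of WT and INSL3-KI at P23. The INSL3-KO gubernaculum at P23, too degenerated to yield RNA, was not analysed here. Testis gave 3 libraries each of the 3 genotypes at P8 and P23, and of WT and INSL3-KI at P40. The WT and INSL3-KI libraries stood in 1 table, except WT testis at P23, which stood with all INSL3-KO libraries in the second, so that table and genotype cannot be told apart in gubernaculum INSL3-KO against WT, in P8 testis INSL3-KO against WT and in P23 testis INSL3-KI against WT.

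The epididymis forms from the Wolffian duct, a tube that in males is maintained by testosterone, and it joins the testis to the vas deferens close to where the gubernaculum attaches. Its principal cells secrete segment by segment a set of lipocalins, cystatins, defensins, protease inhibitors and sperm-coating proteins, and many of these genes depend on androgen and are switched on as the duct matures.

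Total counts ranged from 29861447 to 45260372 per gubernaculum library and from 33000204 to 42629270 per testis library. Levels are CPM, the counts of a gene scaled to a common library size after TMM scaling within a tissue, and levels of different genes are set side by side only as the deposited FPKM, which divide by transcript length. As a check of the labels, Insl3 had 2922, 3524 and 2722 counts in WT testis at P8, 33, 15 and 26 in INSL3-KI, and 906, 804 and 613 in the libraries labelled INSL3-KO, which went only part of the way to the label, whereas P23 INSL3-KO testis had 0, 5 and 0. The muscle genes that mark WT gubernaculum summed to between 23497 and 107632 CPM in the 6 WT libraries. In Crisp1, Spink8 and Akr1b7, WT replicate 3 and INSL3-KI replicate 2 of the P23 gubernaculum stood apart from the others of their group. Over all genes, by chi-square per degree of freedom, P23 WT replicate 1 differed most (243 and 233, against 75.7 between replicates 2 and 3). In P23 INSL3-KI this value was 429 and 435 for replicate 1, and 919 between replicates 2 and 3. In P8 testis, WT replicate 1 and INSL3-KI replicates 1 and 2 had almost no Crisp1 or Spink8, unlike the remaining 6 libraries.

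In GRCm38 coordinates of the GENCODE annotation, all 10 members are protein-coding. The 4 lipocalin genes lie on the same strand within 172 kb of chromosome 2, between 25653120 (Lcn8) and 25825537 (the end of Lcn9), and Lcn5 starts at 25657952, just beyond Lcn8. The cystatin genes Cst8 and Cst11 lie in 37.0 kb of chromosome 2 (148768609 to 148805595). Crisp1 lies on chromosome 17 (40293758 to 40319207), Spink8 on chromosome 9 (109812280 to 109826633), Akr1b7 on chromosome 6 (34412334 to 34423142) and Clu on chromosome 14 (65968483 to 65981547). Only Akr1b7 overlapped another annotated gene, the antisense pseudogene Gm13857, and it also has close paralogs in the aldo-keto reductase family. Its counts may be less certain for these reasons, which was not tested for any member.

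RefSeq promoter sequence (GRCm38.p6) was held for 7 of the 10 members. The RefSeq start, from which distances are measured, lay inside the GENCODE gene for Akr1b7 and Cst8 and just before it for Lcn8. The 250 bases before the start are shown, 5′ to 3′ on the gene's strand, for Crisp1 and Akr1b7, which were among the most abundant members in the mutant gubernaculum, and for the 4 clustered lipocalins, of which Lcn5 and Lcn8 were counted and Lcn9 and Lcn10 were not. Capitals mark matches, on either strand, to TATAA (the core of a TATA box) or to AGAACA, a half-site of the motif that steroid hormone receptors bind, which reads TGTTCT on the other strand.
Crisp1 (chr17:40319208-40319457, minus strand): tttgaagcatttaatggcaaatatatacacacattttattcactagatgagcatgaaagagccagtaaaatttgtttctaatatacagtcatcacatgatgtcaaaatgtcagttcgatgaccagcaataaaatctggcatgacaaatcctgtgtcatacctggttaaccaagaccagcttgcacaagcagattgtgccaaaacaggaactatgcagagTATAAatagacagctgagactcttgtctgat
Akr1b7 (chr6:34412112-34412361, plus strand): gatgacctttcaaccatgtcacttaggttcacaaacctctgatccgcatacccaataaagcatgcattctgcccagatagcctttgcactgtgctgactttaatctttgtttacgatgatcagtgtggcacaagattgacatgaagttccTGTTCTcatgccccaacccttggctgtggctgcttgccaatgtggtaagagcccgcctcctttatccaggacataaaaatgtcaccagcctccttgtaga
Lcn5 (chr2:25657702-25657951, plus strand): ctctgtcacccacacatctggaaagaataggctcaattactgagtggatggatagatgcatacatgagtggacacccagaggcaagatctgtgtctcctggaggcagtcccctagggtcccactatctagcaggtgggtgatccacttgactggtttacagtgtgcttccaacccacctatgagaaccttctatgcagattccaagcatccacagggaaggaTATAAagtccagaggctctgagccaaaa
Lcn8 (chr2:25652868-25653117, plus strand): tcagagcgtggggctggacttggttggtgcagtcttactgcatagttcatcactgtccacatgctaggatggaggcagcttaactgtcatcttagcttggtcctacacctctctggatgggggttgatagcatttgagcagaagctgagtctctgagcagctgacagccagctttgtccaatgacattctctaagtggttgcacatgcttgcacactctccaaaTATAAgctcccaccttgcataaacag
Lcn9 (chr2:25822903-25823152, plus strand): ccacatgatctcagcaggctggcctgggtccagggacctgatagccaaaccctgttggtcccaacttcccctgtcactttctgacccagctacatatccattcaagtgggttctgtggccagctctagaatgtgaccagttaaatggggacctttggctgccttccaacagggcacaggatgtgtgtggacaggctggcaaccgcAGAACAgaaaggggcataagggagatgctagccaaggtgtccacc
Lcn10 (chr2:25682476-25682725, plus strand): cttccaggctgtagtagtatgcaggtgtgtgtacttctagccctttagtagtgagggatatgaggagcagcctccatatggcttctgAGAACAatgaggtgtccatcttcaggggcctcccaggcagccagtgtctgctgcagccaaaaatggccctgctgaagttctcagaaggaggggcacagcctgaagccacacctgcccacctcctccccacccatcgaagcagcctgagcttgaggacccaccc
Crisp1, Lcn5 and Lcn8 each held 1 TATAA on the sense strand, with its first base 31, 28 and 26 bases before the start. Of all 32851 RefSeq promoter windows of this length, 22.8% held TATAA on either strand, and 3.52% held it on the sense strand with its first base 20 to 40 bases before the start. The half-site was found once each in Akr1b7, Lcn9 and Lcn10, and in 16.1% of all windows. Cst8 held neither motif in this window. These matches describe the letters only.

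Crisp1, which encodes a cysteine-rich protein that coats sperm, was almost absent from the WT gubernaculum at P8 and abundant in both mutants. Its counts were 0, 0 and 3 in WT, 24351, 55432 and 30537 in INSL3-KI, and 39007, 44301 and 48378 in INSL3-KO. Its level was 1023 ± 486 CPM (SD, n = 3) in INSL3-KI and 1036 ± 60.8 CPM (SD, n = 3) in INSL3-KO. Over the groups this was 32503 times the WT level in INSL3-KI (95% exact counting interval 11122 to 157615) and 33386 times in INSL3-KO (11424 to 161892), where the width comes from the 3 WT counts and counting error alone is covered. Neither mutant overlapped WT, and the mutants overlapped each other. These are bulk libraries, in which more cells of a type and more RNA per cell cannot be told apart.

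Spink8, a Kazal-type serine protease inhibitor, had no count in any P8 WT gubernaculum library. It had 34195, 53955 and 30929 counts in INSL3-KI and 23555, 29597 and 27945 in INSL3-KO. Against a limit of 3 counts over the WT group, Spink8 was at least 35084-fold higher in INSL3-KI and at least 20560-fold higher in INSL3-KO. The lowest INSL3-KI library lay above the highest INSL3-KO library in counts, though these groups come from different tables.

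Akr1b7, an aldo-keto reductase first known from the vas deferens and also made in the adrenal cortex, differed most between the mutants. It had 2, 0 and 0 counts in P8 WT gubernaculum, 35569, 69303 and 35060 in INSL3-KI, and 5724, 6450 and 6630 in INSL3-KO. The level was 1291 ± 575 CPM (SD, n = 3) in INSL3-KI and 148 ± 3.92 CPM (SD, n = 3) in INSL3-KO. The ratio to WT was 61842 (95% exact counting interval 17119 to 510654) in INSL3-KI and 7151 (1979 to 59052) in INSL3-KO. Every INSL3-KI library lay above every INSL3-KO library, a gap in which genotype and table cannot be told apart.

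Clu, which encodes the secreted chaperone clusterin and is made by many tissues, was the only member with a substantial level in the WT gubernaculum. Its counts at P8 were 5249, 4238 and 3828 in WT, 71083, 32353 and 91620 in INSL3-KI, and 44493, 46945 and 42414 in INSL3-KO. The fitted log2 fold change against WT was 3.74 (SE 0.376) in INSL3-KI and 2.94 (SE 0.141) in INSL3-KO. Clu therefore changed by far less than Crisp1, Spink8 and Akr1b7, which started from almost no counts. On the FPKM scale the order of mean levels in P8 INSL3-KI was Spink8 at 1741 ± 574, Akr1b7 at 1124 ± 492, Clu at 1109 ± 545 and Crisp1 at 805 ± 377 FPKM (SD, n = 3 each), so that the SD ranges of neighbours in this order overlapped. In P8 INSL3-KO it was Spink8 at 904 ± 36.9, Crisp1 at 700 ± 38.7, Clu at 559 ± 50.4 and Akr1b7 at 111 ± 2.37 FPKM (SD, n = 3 each), where each step was larger than the SDs.

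The lipocalins, carriers of small hydrophobic ligands, were present at much lower levels or not at all. Lcn5, the epididymal retinoic acid-binding protein, had no count in the P8 WT gubernaculum, 53, 63 and 50 counts in INSL3-KI and 9, 28 and 14 in INSL3-KO, which is at least 48.9-fold and at least 12.9-fold higher than the limit of 3 counts over the WT group. Lcn8 had no count in WT, 5, 2 and 4 in INSL3-KI and 7, 9 and 10 in INSL3-KO, so its group sums exceeded that limit at least 3.24-fold and at least 6.59-fold. Lcn9 and Lcn10 had no count in any of the 39 libraries of either tissue. In a gubernaculum library, 3 counts correspond to between 0.0663 and 0.119 CPM, so levels of Lcn9 and Lcn10 below that could not have been detected. Within the cluster of 4 neighbouring genes, therefore, only Lcn5 and Lcn8 were detected. On the FPKM scale the mean level of Lcn5 in P8 INSL3-KI was 2.41 ± 0.363 FPKM (SD, n = 3), far below the 805 FPKM of Crisp1.

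The cystatins, inhibitors of cysteine proteases, did not follow the other members. Cst8 had 19, 14 and 0 counts in the P8 WT gubernaculum, 0, 4 and 0 in INSL3-KI, and 0, 10 and 4 in INSL3-KO. Its counts were thus few everywhere and the groups overlapped at 0. Cst11 had 4 counts in 1 INSL3-KI library at P23 and none in the other 14 gubernaculum libraries. In all, 6 of the 10 members (Crisp1, Spink8, Akr1b7, Clu, Lcn5 and Lcn8) had every INSL3-KI library above every WT library at P8, and the same 6 had every INSL3-KO library above every WT library. Over the 21561 shared genes, 24.6% were that way in INSL3-KI and 29.4% in INSL3-KO, and since the members were partly picked on this contrast nothing is read from their share. The filter on low counts passed 5 members in INSL3-KI against WT and 4 in INSL3-KO against WT.

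**Figure D1:**
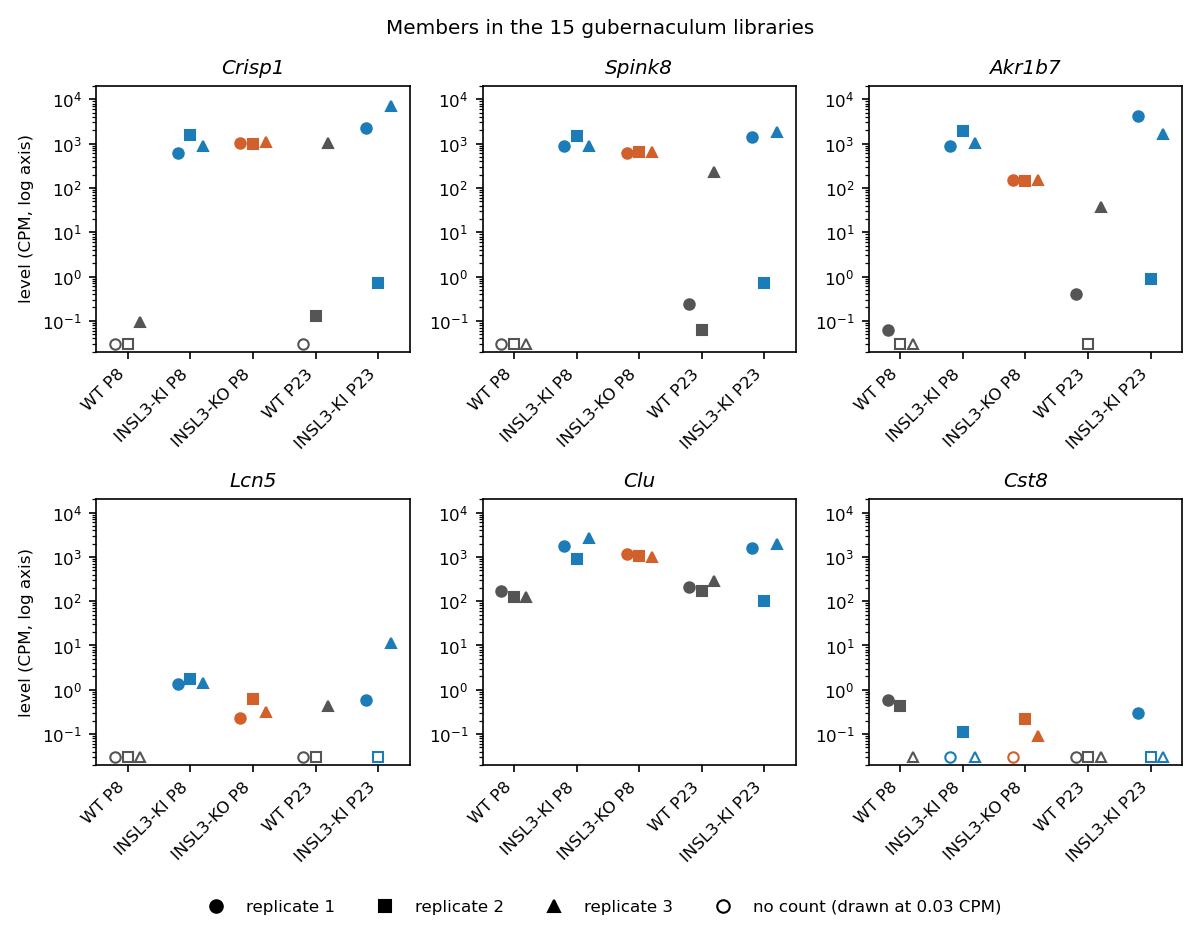
Level of 6 members in each gubernaculum library, in CPM on a log axis, by genotype and age, with 1 point per library, the shape giving the replicate and open points marking libraries with no count. Crisp1, Spink8 and Akr1b7 lie between 144 and 1951 CPM in all 6 mutant libraries at P8 and at 0.0949 CPM or less in WT, Clu is above 100 CPM everywhere, and at P23 WT replicate 3 is high and INSL3-KI replicate 2 is low.

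At P23 libraries of the same genotype differed widely from one another. In replicates 1, 2 and 3, Crisp1 reached 0, 4 and 33293 counts in WT, against 81321, 23 and 312449 in INSL3-KI. Spink8 had 6, 2 and 7436 counts in WT and 50756, 23 and 81241 in INSL3-KI, in the same order. Akr1b7 had 10, 0 and 1157 counts in WT and 153166, 29 and 76144 in INSL3-KI. In each of these genes WT replicate 3 lay above INSL3-KI replicate 2, and the genotypes overlapped.

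Lcn5 and Clu showed the same split at P23. Lcn5 had 0, 0 and 14 counts in WT and 21, 0 and 522 in INSL3-KI. Clu had 5340, 5527 and 8975 counts in WT and 56817, 3312 and 88228 in INSL3-KI, with INSL3-KI replicate 2 the lowest of the 6 libraries. The fitted log2 fold change of Clu was 2.46 (SE 0.986) with all libraries and 3.19 without WT replicate 3 and INSL3-KI replicate 2. For Crisp1 the value was 3.16 (SE 3.54) with all libraries and 15.39 without WT replicate 3, for Spink8 it was 3.81 (SE 3.16) and 12.82, and for Akr1b7 it was 7.38 (SE 3.46) and 13.35, so that the size of these differences rested on WT replicate 3. Leaving out WT replicate 3 moved Lcn5 from 4.73 (SE 2.52) to 10.11, and leaving out INSL3-KI replicate 3 moved it to 0.93. Lcn8 departed from the pattern, with 0, 12 and 12 counts in INSL3-KI and none in WT, and so did Cst8, which had 11 counts in INSL3-KI replicate 1 and none in the other P23 libraries.

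The members other than Clu took up a measurable part of the libraries that had them. Their share of all counts was 0.276%, 0.575% and 0.323% in the P8 INSL3-KI libraries, 0.174%, 0.178% and 0.186% in P8 INSL3-KO, and 0.784%, 0.000246% and 1.16% in P23 INSL3-KI. In WT it was 5.9e-05% or less in the 3 P8 libraries, and 4.7e-05%, 1.6e-05% and 0.114% at P23.

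The proportions among the abundant members were not fixed. The counts ratio of Crisp1 to Spink8 was 0.712, 1.03 and 0.987 in P8 INSL3-KI, 1.66, 1.5 and 1.73 in P8 INSL3-KO, 4.48 in P23 WT replicate 3, and 1.60 and 3.85 in P23 INSL3-KI replicates 1 and 3. The counts ratio of Akr1b7 to Spink8 was 1.04, 1.28 and 1.13 in P8 INSL3-KI, 0.243, 0.218 and 0.237 in P8 INSL3-KO, 0.156 in P23 WT replicate 3, and 3.02 and 0.937 in P23 INSL3-KI replicates 1 and 3. At P8 both ratios separated INSL3-KI from INSL3-KO without overlap, with table and genotype again inseparable. The 2 P23 INSL3-KI libraries differed more from each other than the 3 libraries of either P8 mutant did.

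**Figure D2:**
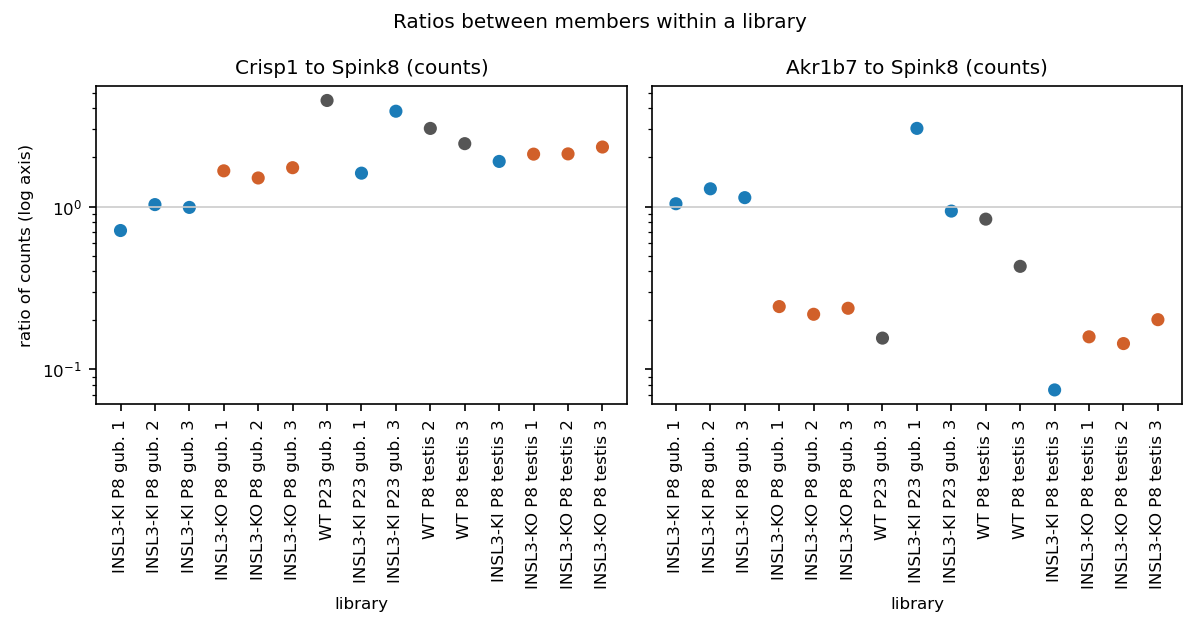
Counts ratio of Crisp1 to Spink8 and of Akr1b7 to Spink8 on a log axis, in the 15 libraries of either tissue with at least 100 counts of all 3 genes, coloured by genotype (grey WT, blue INSL3-KI, orange INSL3-KO). The line marks a ratio of 1, near which P8 INSL3-KI gubernaculum lies in both panels, whereas Akr1b7 to Spink8 is 0.243 or less in P8 INSL3-KO gubernaculum, 0.202 or less in P8 testis labelled INSL3-KO, 0.156 in P23 WT gubernaculum replicate 3 and lowest, at 0.0748, in P8 INSL3-KI testis replicate 3.

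Other epididymal secretory genes, a list of 63 that holds none of the members, were examined in the same libraries. This list, too, was chosen with earlier results of these data known. At P8 in INSL3-KI against WT, 26 passed the filter on low counts, and 20 of them rose, none fell and 6 did not pass (edgeR's quasi-likelihood test, Benjamini-Hochberg adjusted p under 0.01 and at least 2-fold). Over all 15500 genes tested 14.4% rose and 9.7% fell (2238 and 1503 genes, or 3144 and 1133 with library size alone as the scaling). In INSL3-KO against WT, 26 of 32 rose and none fell, beside 15.5% and 15.2% of all 15609 genes. Of the genes tested, 8 in INSL3-KI and 12 in INSL3-KO had no count in any WT library, so they passed the filter through the mutant libraries and could not have fallen. Others with few WT counts also needed the mutant libraries, since only 13 of the 63 passed the filter between WT at P23 and P8. A fall in those could hardly have been called. Without the filter 18 of 49 rose in INSL3-KI and 26 of 51 in INSL3-KO. At an unadjusted p under 0.05, 1 gene of the list was lower in INSL3-KI and none in INSL3-KO, and DESeq2 also called none lower. All 20 that rose in INSL3-KI also rose in INSL3-KO, a comparison that shares the WT libraries, and Adam7, Defb20, Defb29, Defb38, Eppin and Wfdc13 passed only in INSL3-KO, where the difference between the mutants was not tested. When all 5 gubernaculum groups shared 1 estimate of the spread, 3 (Wfdc2, Lcn2 and Cd52) and 6 genes passed.

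The median log2 fold change of the tested genes of this list came to 8.00 for INSL3-KI and 8.37 for INSL3-KO, and 6.19 and 6.27 with the genes at 0 in every WT library set to their lower limit, beside 0.02 and 0.03 over all genes. Defb42, a beta-defensin, had no WT count at P8, 2280, 6339 and 5572 counts in INSL3-KI and 7729, 9776 and 9506 in INSL3-KO. Wfdc15b, of the whey acidic protein family of protease inhibitors, had no WT count, 1814, 2067 and 2384 counts in INSL3-KI and 3921, 5391 and 4821 in INSL3-KO. Serpina1f, a serpin, had 4, 0 and 0 counts in WT, 9366, 21620 and 15090 in INSL3-KI and 10081, 11226 and 12232 in INSL3-KO. Defb28 (no WT count, 291 to 451 in INSL3-KI and 428 to 621 in INSL3-KO) and Defb40 (no WT count, 122 to 289 and 746 to 1219) were also among the largest changes in at least 1 mutant. Per library, 12 to 19 of the 63 genes had more than 3 counts in P8 WT, 30 to 40 in INSL3-KI and 42 to 44 in INSL3-KO.

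At P23 in INSL3-KI against WT, none of 24 tested genes of the list passed in edgeR, beside 2.57% of all 15082 genes in either direction, 0.212% higher and 2.35% lower (32 and 355 genes, or 74 and 308 with library size alone as the scaling). At an unadjusted p under 0.05, 1 was higher and 1 lower, and DESeq2 called Lcn2 higher and Rnase13 lower. Without WT replicate 3 and INSL3-KI replicate 2, 3 of 23 (Aqp9, Serpina1f and Defb42) were past the thresholds, beside 1.65% of all genes higher. These libraries were left out because their epididymal genes ran against the rest of their group, so the choice used the outcome and nothing is read from that count. Between WT gubernaculum at P23 and P8, only Lcn2, the siderophore-binding lipocalin of epithelia and neutrophils, rose of 13 tested (log2 fold change 2.70, SE 0.556, adjusted p = 0.00994 by edgeR), beside 6.17% of all 14941 genes higher and 4.34% lower, and it did not pass when any 1 of the 6 libraries was left out. Of the members, Clu alone passed the filter there, with a log2 difference of 0.68 (SE 0.210).

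**Figure D3:**
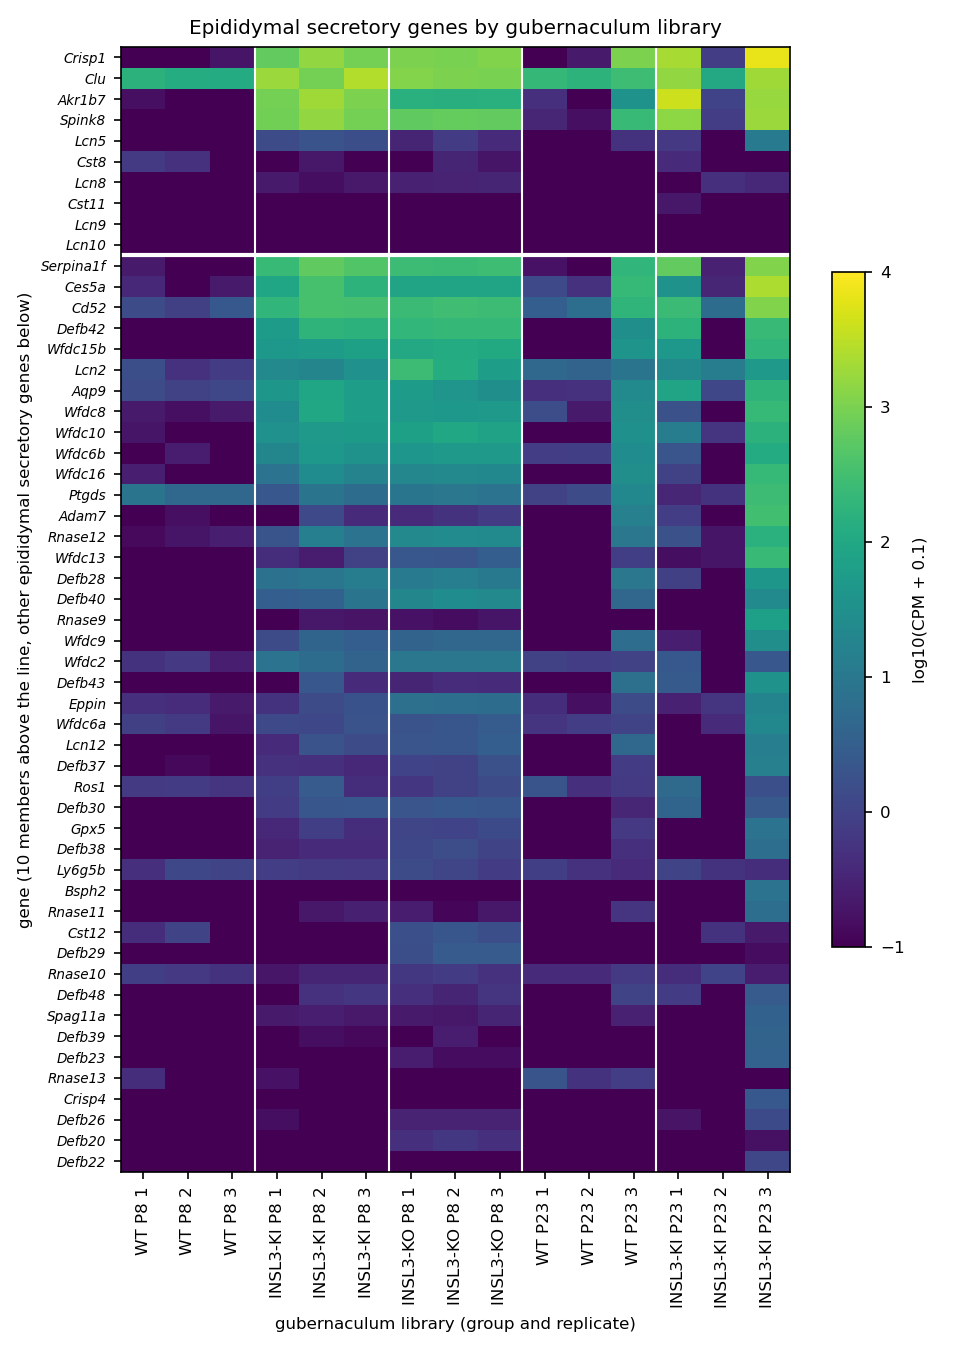
Level of the 10 members (above the white line) and of the other epididymal secretory genes with over 20 counts in at least 1 gubernaculum library (below it), as log10(CPM + 0.1), in the 15 gubernaculum libraries. Columns of P8 INSL3-KI and INSL3-KO, P23 WT replicate 3 and P23 INSL3-KI replicates 1 and 3 are bright for Crisp1, Spink8, Akr1b7, Serpina1f and Defb42, whereas P8 WT, P23 WT replicates 1 and 2 and P23 INSL3-KI replicate 2 are dark for them.

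Wolffian duct epithelium markers had a higher summed level in each library with abundant Crisp1 than in any without. The sums were not in proportion to the members, and not every marker rose. Pax8, a transcription factor of the duct, had 7, 4 and 0 counts in P8 WT, 2712, 3501 and 2380 in INSL3-KI and 868, 1017 and 928 in INSL3-KO, and at P23 it had 0, 0 and 296 counts in WT and 5189, 0 and 8083 in INSL3-KI. At P8, 8 of 10 tested duct markers rose in INSL3-KI and 8 of 11 in INSL3-KO, where 1 fell, beside 14.4% and 15.5% of all genes higher. Only 7 of the 11 passed the filter on low counts between WT at P23 and P8. The others, Pax8 among them, needed the mutant libraries to pass it, and a fall in them could hardly have been called. Pax8 (log2 fold change 9.43, SE 0.427, adjusted p = 1.39e-06 by edgeR), Pax2 (9.24) and Cdh16 (8.01) changed most in INSL3-KI, and the same 3 genes led in INSL3-KO (7.56, 6.56 and 7.05). The summed level of the 11 duct markers was 81.1 to 115 CPM in P8 WT, 517 to 689 CPM in INSL3-KI and 282 to 298 CPM in INSL3-KO. At P23 it was 77.9, 70.9 and 134 CPM in WT and 707, 49.8 and 896 CPM in INSL3-KI. The 134 CPM of P23 WT replicate 3 was little above P8 WT, though its members other than Clu reached 1314 CPM.

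General epithelial genes were high in the same libraries as the members, but they also rose with age in WT. Of 14 tested, 13 rose in P8 INSL3-KI, led by Ehf, Cldn3, Cldn7 and Cldn4, and 13 rose in INSL3-KO, led by Ehf, Epcam, Cldn7 and Cldn3. Over all genes 14.4% and 15.5% rose. Their summed level was 65.2 to 192 CPM in P8 WT, 1836 to 2244 CPM in INSL3-KI and 1122 to 1176 CPM in INSL3-KO, and at P23 228, 321 and 564 CPM in WT and 2323, 21.3 and 3295 CPM in INSL3-KI. Every P23 WT library thus lay above every P8 WT library, including replicates 1 and 2 with almost no Crisp1. Between WT at P23 and P8, Krt18 and Spint2 rose, 2 of 11 tested by edgeR, beside 6.17% of all genes higher. The rest of the 14 thus needed the mutant libraries to pass the filter at P8. Foxi1, a regulator of the acid-secreting clear and narrow cells of the epididymis, had no count in P8 WT, 344, 388 and 319 in INSL3-KI and 272, 375 and 440 in INSL3-KO, and 4 of 5 tested genes of that cell list rose in each mutant, 3 of the tested genes having no WT count. Slc4a9, the remaining gene of that list, did not pass the filter. Only 1 gene of the list passed it between WT at P23 and P8, so the others needed the mutant libraries. The part of these cell types in the members' values was not tested.

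Genes of neighbouring tissues were examined in the same way. All 8 seminal vesicle genes were at 0 in P8 WT, and their summed level was 1.47 to 4.46 CPM in INSL3-KI and 5.18 to 6.64 CPM in INSL3-KO, where the 2 and 3 genes that passed the filter did so through the mutant libraries alone. Of 6 kidney tubule genes only Aqp2, a water channel, passed the filter, again through the mutant libraries alone, with no WT count, 7807, 6483 and 3834 counts in INSL3-KI and 23, 39 and 19 in INSL3-KO. Of the Leydig and adrenal steroidogenic genes, Mc2r rose and Cyp11a1 fell in each mutant. Insl3 also fell in each, but it is the gene altered in both mutants, so nothing is read from its fall. The summed level of the list was 9.37 to 16.0 CPM across the 9 P8 libraries, against 306 to 1026 CPM in P8 testis. Sertoli genes summed to at most 80.3 CPM in any gubernaculum library, with Sox9 rising in both mutants and Dhh falling in INSL3-KO, and germ cell genes to at most 26.9 CPM, with Ddx4 and Dazl falling in INSL3-KI and none passing in INSL3-KO.

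The 3 remaining lists changed in the P8 mutants as well. All 7 adipocyte genes rose in both, led by Retn, Cfd and Adipoq, with summed levels of 89.6 to 101 CPM in WT, 1031 to 1338 CPM in INSL3-KI and 2397 to 2684 CPM in INSL3-KO. Only 1 of the 7 passed the filter between WT at P23 and P8. The rest needed the mutant libraries to pass it at P8, and a fall in them could hardly have been called. Over all genes 14.4% rose and 9.7% fell in P8 INSL3-KI, and 15.5% and 15.2% in INSL3-KO. Of 8 skeletal muscle genes 7 fell in each, the myogenic factor Myog from 14194, 11589 and 12036 counts in WT to 4, 0 and 3 in INSL3-KI and 2076, 2149 and 2134 in INSL3-KO. In the P23 INSL3-KI libraries adipocyte genes summed to 10918, 20639 and 694 CPM, and the library with the fewest member counts had the highest adipocyte sum. At P23 in INSL3-KI, 6 of 8 muscle genes fell and no gene of the other marker lists passed, by edgeR. Androgen signalling genes rose in 3 of 4 tested in INSL3-KI and 4 of 5 in INSL3-KO. Srd5a2, which makes the more potent androgen dihydrotestosterone, went from no count in WT to 63, 288 and 176 in INSL3-KI and 31, 59 and 34 in INSL3-KO.

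**Figure D4:**
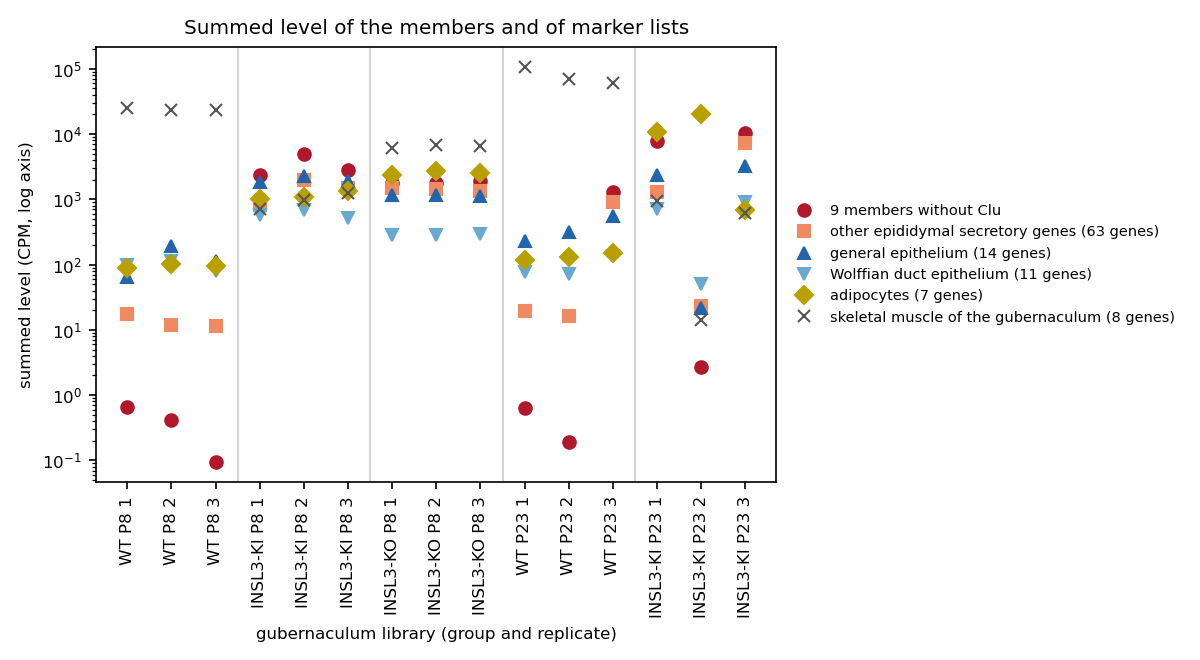
Summed level in CPM, on a log axis, of the 9 members other than Clu and of 5 marker lists in each gubernaculum library, with 1 point per list and library. The members (red) lie at 1781 CPM or more in every P8 mutant library and at 0.663 CPM or less in P8 WT, the duct and epithelial lists are high in the same libraries, and P23 INSL3-KI replicate 2 is low for these lists and highest of all for adipocyte genes (20639 CPM).

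The genes whose pattern over the 15 gubernaculum libraries was most like that of the members were found by Pearson's correlation of log2(CPM + 1) with the mean standardised value of the 8 members that varied. Of 14011 genes ranked, the first 10 included Hoxb7 (r = 0.977), ccdc198 (0.976), Sectm1a (0.972), Plch1 (0.972), Ap1m2 (0.969), Zfp750 (0.969), Ggt1 (0.969), Glb1l3 (0.969) and Fermt1 (0.968). Within the 12 libraries of the first table the r of the first 10 was 0.968 to 0.980. The libraries fall into a group with the members and a group without, so these values describe that split.

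In testis, whose values were not used to pick the members, the genes could be tested. Crisp1 and Spink8 were present in part of the P8 libraries. Crisp1 had 0, 1309 and 1785 counts in WT, 4, 11 and 3970 in INSL3-KI and 4340, 4061 and 3800 in the libraries labelled INSL3-KO, and Spink8 had 4, 434 and 734, 0, 6 and 2099, and 2070, 1930 and 1639. The genotypes overlapped in INSL3-KI against WT (log2 fold change of Crisp1 0.28, SE 2.23, adjusted p = 0.932, and of Spink8 0.76, SE 2.21, adjusted p = 0.809, both by edgeR). In the libraries labelled INSL3-KO the levels were 85.9 ± 3.53 CPM for Crisp1 and 39.7 ± 3.48 CPM for Spink8 (SD, n = 3), above every WT library, but the differences of 1.88 (SE 1.09, adjusted p = 0.185) and 2.16 (SE 0.958, adjusted p = 0.0946) did not pass by edgeR. Without WT replicate 1 the differences were 1.33 and 1.62 and both passed (adjusted p = 5.5e-05 and 0.000236 by edgeR), whereas the other alternatives gave adjusted p-values of up to 0.451 and 0.241.

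The duct marker Cdh16, looked up after its values were seen, was high in the same P8 testis libraries as Crisp1 but in other proportions, being highest in WT replicate 3 and INSL3-KI replicate 3, with 10, 1434 and 2438 counts in WT, 25, 17 and 2306 in INSL3-KI and 1365, 905 and 1037 in those labelled INSL3-KO. The part of duct tissue in these values was not tested. At P23 and P40 Crisp1 had at most 83 counts in any testis library and Cdh16 at most 66. Other epididymal secretory genes rose in 3 of 23 tested in P8 INSL3-KI testis, beside 3.03% of all genes higher and 3.25% lower (476 and 511 genes, or 607 and 315 with library size alone), and in none without WT replicate 2 or 3 or INSL3-KI replicate 1 or 3. In the P8 libraries labelled INSL3-KO 13 of 29 rose and 1 fell, beside 5.44% of all genes higher (855 higher and 1316 lower, or 1122 and 1066 with library size alone). Lcn5 had no count in any of the 24 testis libraries, and Lcn8 had at most 4.

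Cst8, known to be made by spermatogenic cells as well as by the epididymis, had its highest levels in testis. WT testis had 359, 640 and 409 counts at P8, 6543, 6628 and 6539 at P23, and 3264, 3670 and 3601 at P40. INSL3-KI had 139, 106 and 169 counts at P8, 621, 661 and 189 at P23, and 306, 317 and 282 at P40, below every WT library of the same age. The libraries labelled INSL3-KO had 454, 500 and 513 counts at P8, within the range of WT, and 868, 945 and 932 at P23.

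Cst8 fell by 4.11 on the log2 scale in P40 INSL3-KI testis (SE 0.133, adjusted p = 2.22e-05 by edgeR), and in P23 INSL3-KO testis, within 1 table, it fell by 3.52 (SE 0.0504, adjusted p = 2.16e-12 by edgeR). In P23 INSL3-KI it fell by 4.26 across tables (SE 0.491, adjusted p = 0.00157 by edgeR), and leaving out INSL3-KI replicate 1 or any 1 WT library gave adjusted p-values up to 0.0114. In P8 INSL3-KI it fell by 1.77 (SE 0.261, adjusted p = 0.00595 by edgeR), a call lost without WT replicate 2 or 3 or INSL3-KI replicate 1 or 3 (adjusted p up to 0.0357). In the P8 libraries labelled INSL3-KO the difference was -0.05 (SE 0.206, adjusted p = 0.844 by edgeR). Germ cell genes summed to 7702 to 8138 CPM in P23 WT testis, 2042 to 3064 CPM in INSL3-KI and 477 to 536 CPM in INSL3-KO, and to 4474 to 5328 CPM in P40 WT and 548 to 1945 CPM in INSL3-KI, and their part in the Cst8 values was not tested.

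Clu was the most abundant member in testis. Its level was 1929 ± 31.1 CPM (SD, n = 3) in P23 WT and 8028 ± 185 CPM (SD, n = 3) in P23 INSL3-KO, a rise of 2.12 (SE 0.0385, adjusted p = 9.51e-12 by edgeR). At P40 it was 1466 ± 96.4 CPM in WT and 5163 ± 938 CPM in INSL3-KI (SD, n = 3 each), a rise of 1.87 (SE 0.284, adjusted p = 0.00155 by edgeR), which kept its size when a library was left out (1.77 to 2.04) but passed in 4 of 6 such fits (adjusted p up to 0.0114). At P23 the INSL3-KI libraries had 68687, 48812 and 140539 counts against 47033, 47483 and 47109 in WT, and the difference of 0.33 (SE 0.390, adjusted p = 0.498 by edgeR) did not pass. At P8 Clu was 0.49 higher in INSL3-KI (adjusted p = 0.0403) and 0.75 higher in the libraries labelled INSL3-KO (adjusted p = 0.00199, both by edgeR), neither reaching 2-fold. Sertoli cell genes, from a cell type known to secrete clusterin, summed to 381 to 415 CPM in P23 WT, 2350 to 2426 CPM in P23 INSL3-KO, 413 to 453 CPM in P40 WT and 1568 to 2302 CPM in P40 INSL3-KI, and their part in the Clu values was not tested.

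Akr1b7, Spink8 and Cst11 were low in testis at P23 and P40. Akr1b7 had 27, 18 and 24 counts in P23 WT and 164, 318 and 291 in P23 INSL3-KO, a rise of 2.79 (SE 0.280, adjusted p = 5.29e-06 by edgeR). Spink8 had 30, 17 and 34 counts in WT and 140, 106 and 128 in INSL3-KO there, a rise of 1.54 (SE 0.324, adjusted p = 0.00125 by edgeR) that did not pass with all testis groups in 1 fit (adjusted p = 0.359, the range over all alternatives being 2.41e-05 to 0.359). At P40 INSL3-KI lay above WT in every library for both, by 1.12 for Akr1b7 (adjusted p = 0.0248) and 1.33 for Spink8 (adjusted p = 0.0104, both by edgeR), short of the threshold. Both passed it with library size alone as the scaling (adjusted p = 0.00552 and 0.00202), and over all alternatives the adjusted p ranged from 0.00165 to 0.0815 for Akr1b7 and from 0.000155 to 0.459 for Spink8. At P8 Akr1b7 had 237, 363 and 315 counts in WT and 92, 109 and 157 in INSL3-KI, without overlap (log2 fold change -1.36, SE 0.268, adjusted p = 0.0121 by edgeR, and from 5.01e-05 by DESeq2 to 0.0635 without WT replicate 2).

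Cst11 had 22, 37 and 19 counts in P8 WT testis, 51, 43 and 38 in INSL3-KI and 87, 83 and 77 in those labelled INSL3-KO. The difference in the latter was 1.54 (SE 0.340, adjusted p = 0.00716 by edgeR) and that in INSL3-KI 0.77 (SE 0.401, adjusted p = 0.175 by edgeR). The call in the latter was lost when any 1 library other than WT replicate 2 was left out (adjusted p up to 0.0313) and with all testis groups in 1 fit (0.110), and over all alternatives the adjusted p ranged from 0.000669 to 0.110. At P40 it had no count in WT and 16, 8 and 32 in INSL3-KI.

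Counted over the members that could be tested in testis, 1 of 6 changed in P8 INSL3-KI (Cst8 lower), beside 6.29% of all genes, 1 of 6 in the P8 libraries labelled INSL3-KO (Cst11 higher), beside 13.8%, and 1 of 4 in P23 INSL3-KI (Cst8 lower), beside 20.6% (8.81% higher and 11.8% lower, that is 1462 and 1966 genes, or 3607 and 1450 with library size alone as the scaling). In P23 INSL3-KO 4 of 5 changed (Clu, Akr1b7 and Spink8 higher and Cst8 lower), beside 64.4% (5199 genes higher and 5584 lower, or 7188 and 4537 with library size alone). In P40 INSL3-KI 2 of 4 changed (Clu higher and Cst8 lower), beside 47.7% (4264 higher and 3690 lower, or 6583 and 2458 with library size alone). At P23 and P40 the shares of all genes that changed were themselves large, and with so few members the counts do not set them apart from other genes. Other epididymal secretory genes there numbered none higher and 4 lower of 23 in P23 INSL3-KI (1 lower without INSL3-KI replicate 1 or any 1 WT library, 8 without INSL3-KI replicate 3, and 9 by DESeq2), 12 higher and 9 lower of 26 in P23 INSL3-KO, and 7 higher and 2 lower of 22 in P40 INSL3-KI (6 lower without INSL3-KI replicate 1, and 8 by DESeq2). The difference between INSL3-KI and WT itself changed from P8 to P40 in 4 of the 6 members tested (Clu, Akr1b7, Cst8 and Cst11), beside 45.6% of all genes, by an edgeR interaction test chosen after the data were seen.

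**Figure D5:**
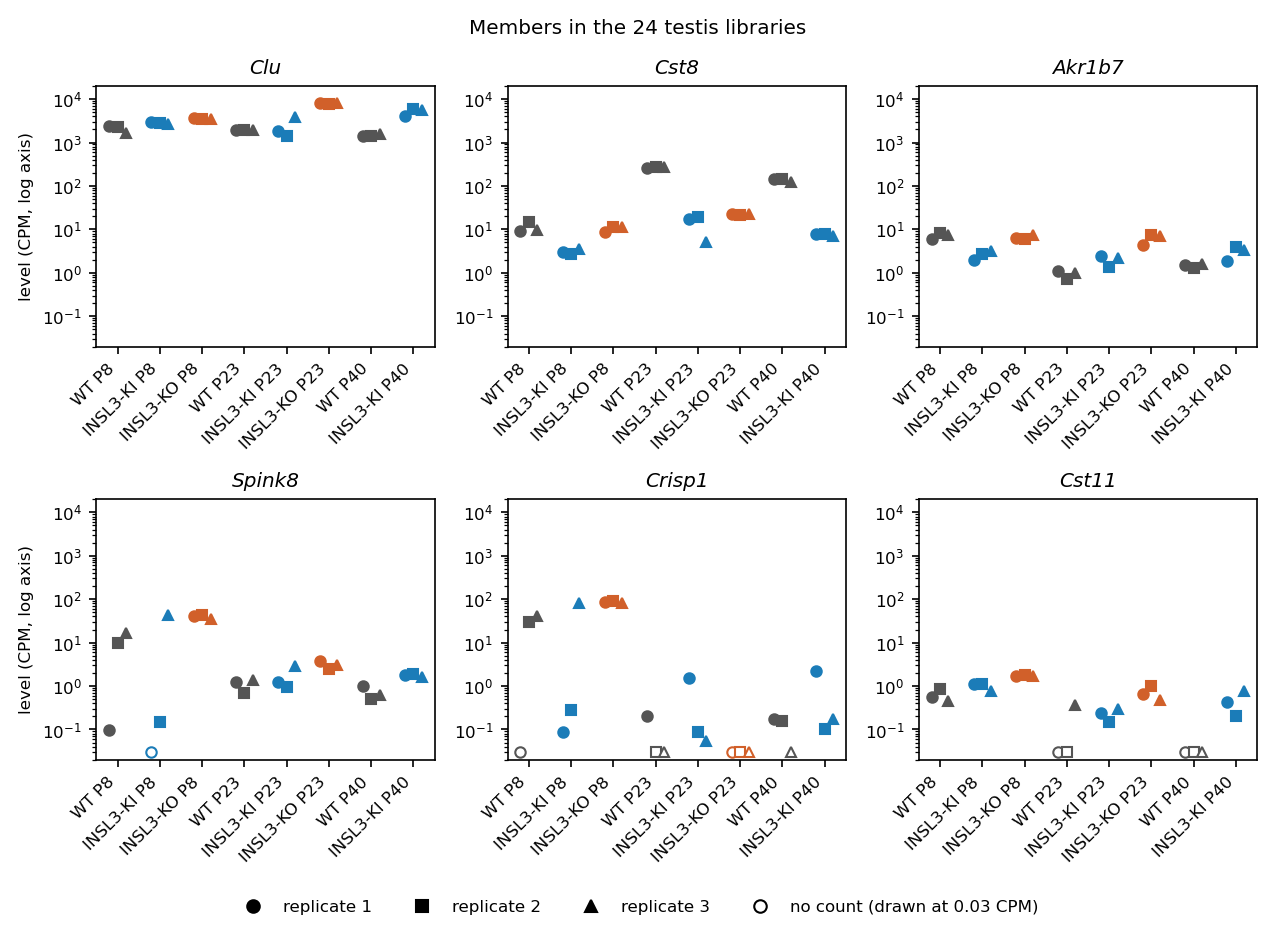
Level of 6 members in each testis library, in CPM on a log axis, by genotype and age, with 1 point per library, the shape giving the replicate and open points marking libraries with no count. Cst8 in INSL3-KI lies below WT at all 3 ages, Clu reaches 8028 CPM on average in P23 INSL3-KO, and Crisp1 and Spink8 are high in only some of the P8 libraries.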

How the data were processed

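RNA was extracted with TRIzol from gubernaculum and testis, made into mRNA libraries with the Hieff NGS Ultima Dual-mode kit, sequenced as paired-end reads on a NovaSeq and aligned with HISAT2 to GRCm38 by the authors, whose own differential expression used DESeq2. The authors deposited raw gene counts and FPKM (fragments scaled to transcript length and library size) in 2 sets of tables, holding 27 and 12 libraries. The counting tool and its strand setting are not given in the sources used here. Tables were joined on Ensembl ID (21561 genes, 94.16% to 97.86% of each library's counts). The 3 libraries a group are labelled biological replicates, and no pair agreed within counting error.

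Groups were compared on the counts with edgeR 4.0.16 in R 4.3.3 (TMM scaling, filterByExpr, quasi-likelihood test, Benjamini-Hochberg adjustment over all genes tested), using the libraries of the 2 groups compared. Calls required a 2-fold or larger difference together with adjusted p below 0.01, the authors' thresholds. DESeq2 1.42.0 and limma 3.58.1 on log2(FPKM + 1) and log2(FPKM + 0.1) were alternatives, as were library size alone as the scaling, no filter on low counts, a replicate block, all groups of a tissue in 1 fit and leaving out each library. Scripts were tested on simulated data. Counting intervals are exact, at 95%, and cover counting error only, and the detection limit is 3 counts. The members and gene lists were chosen with earlier results of these data known. Named genes were the 10 members, up to 4 called genes per list and gubernaculum comparison with the largest changes and at least 1 CPM, Insl3 as a check, and the 10 genes most correlated with the members. Genes that these rules name and the text does not are not reported here. Other named genes were chosen after their values were seen.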

Additional observations from a re-analysis of the deposited data

Results flagged for a closer look

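The difference between INSL3-KI and WT testis changed between P8 and P40 for 4 members, by edgeR's quasi-likelihood test of the interaction with Benjamini-Hochberg adjustment, a test chosen after the data were seen. Over all 17354 genes tested 45.6% passed the same thresholds. The log2 fold change at P40 minus that at P8 was 1.31 for Clu (SE 0.261, adjusted p = 0.00146), 2.41 for Akr1b7 (SE 0.448, adjusted p = 0.000942), -2.42 for Cst8 (SE 0.264, adjusted p = 4.58e-05) and 6.35 for Cst11 (SE 1.32, adjusted p = 0.00298). Akr1b7 was lower in every INSL3-KI library than in WT at P8 and higher in every one at P40. Cst11 had no count in P40 WT testis, so its value depends on the prior count. Crisp1 (adjusted p = 0.594) and Spink8 (adjusted p = 0.906) did not pass.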

How the results depend on the processing

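With all gubernaculum groups in 1 fit, the other epididymal secretory genes called fell in number from 20 to 3 (P8 INSL3-KI) and from 26 to 6 (P8 INSL3-KO), while leaving out 1 library gave 17 to 18 and 24 to 27. These counts are of genes called higher. For P23 INSL3-KI the count was 0 by edgeR and with each library left out, 1 by DESeq2 (which also called 1 lower), and 3 without WT replicate 3 and INSL3-KI replicate 2. Over all genes at P23, edgeR called 32 higher and 355 lower and DESeq2 841 and 1400. For WT P23 against P8 the count called higher was 1, and 0 with library size alone, in 1 fit and with each library left out (0 to 0, with 1 called lower without P23 WT replicate 3), and 2 by DESeq2. The members called in testis numbered 1 in P8 INSL3-KI (2 by DESeq2 and in 1 fit, 0 to 1 with a library left out), 1 in P8 INSL3-KO (0 in 1 fit, 0 to 2 with a library left out) and 1 in P23 INSL3-KI (2 by limma on log2(FPKM + 0.1) and in 1 fit, 0 to 1 with a library left out). They numbered 4 in P23 INSL3-KO (3 in 1 fit, 5 with library size alone and by limma on log2(FPKM + 0.1), 4 to 5 with a library left out) and 2 in P40 INSL3-KI (4 with library size alone, by DESeq2, by limma on log2(FPKM + 0.1) and in 1 fit, 1 to 3 with a library left out). No value changed sign past its threshold, and the cause of these changes was not tested.

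Same-numbered replicates were not shown to be paired: the correlations of their deviations ranged from -0.14 to 0.46, and in no comparison did all 3 exceed 0.1. A replicate block gave 18, 24, 0 and 0 higher calls of the other epididymal secretory genes in the 4 gubernaculum comparisons (P8 INSL3-KI, P8 INSL3-KO, P23 INSL3-KI and WT age) and 0, 0, 1, 4 and 2 calls of members in testis (P8 INSL3-KI, P8 INSL3-KO, P23 INSL3-KI, P23 INSL3-KO and P40 INSL3-KI). Library size as the only scaling moved the median log2 change of all genes to 0.34 (P8 INSL3-KI), 0.20 (P8 INSL3-KO) and 0.41 (P23 INSL3-KI) in gubernaculum and to 0.11 (P8 INSL3-KI), 0.10 (P8 INSL3-KO), 0.55 (P23 INSL3-KI), 0.69 (P23 INSL3-KO) and 0.70 (P40 INSL3-KI) in testis. Of the members' fold changes in gubernaculum, 167 values under the alternatives moved by less than 1 SD between replicates and 33 by more. Members with fewer than 3 counts in a library were at the limit of this depth.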

Other observations

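Several epididymal genes that are usually switched on late in the maturation of the duct were high in INSL3-KI replicate 3 of the P23 gubernaculum, the library with the most Crisp1. They were looked up after their values were seen. At P8, Ces5a and Gpx5 were also called higher than WT in both mutants, and Adam7 and Wfdc13 in INSL3-KO. Adam7, a membrane protein of the caput epididymis, had 26, 0 and 13593 counts in the 3 P23 INSL3-KI libraries and 0, 0 and 473 in WT. Ces5a, the epididymal carboxylesterase also called cauxin, had 1304, 8 and 108972 counts in INSL3-KI and 30, 13 and 6987 in WT. Wfdc13 had 2, 3 and 11026 counts in INSL3-KI and 0, 0 and 24 in WT, Rnase9 had 0, 0 and 3054 in INSL3-KI and none in WT, and Gpx5, an epididymal glutathione peroxidase, had 0, 0 and 351 in INSL3-KI. INSL3-KI replicate 1, which had 81321 counts of Crisp1, thus had few or none of these genes except Ces5a. Lcn9 and Lcn10 stayed without a count in both libraries.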
